A study of Mus musculus with 10 samples.

Results

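The segments described here are IGKV1-88, IGKV1-99, IGKV1-110, IGKV1-117 and IGKV1-122, 5 variable (V) segments of the Igkv1 family in the mouse immunoglobulin kappa light chain locus. A line of the deposited repertoire table was taken as theirs when its V call, without the allele, was one of these names. They are 5 of the 114 V segments in the table and hold 11446 of its 161780 counts, or 7.08%. IGKV1-108 and IGKV1-115, whose numbers fall between theirs, are not among the 5 and had 7 counts each. The study sequenced rearranged kappa transcripts of small pre-B cells, sorted by flow cytometry from the bone marrow of C57Bl6 mice aged 6 to 12 weeks, in 5 wild-type (WT) samples and 5 samples of the genotype labelled rsCBE, which the design text writes with a deletion sign (ΔrsCBE). The labels give no treatment and no other allele for either group, and they do not spell rsCBE out. RNA was extracted and kappa libraries were read on a MiSeq as pairs of 151-bp reads. A count here is the number that the authors gave for one combination of V segment, joining (J) segment and the third complementarity-determining region (CDR3), called a clonotype below. The sources used here do not say whether it counts reads or molecules.

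Kappa light chains are built in pre-B cells by joining 1 of many V segments to 1 of a few J segments. A V segment that reads in the same direction as the J segments joins by deletion of the DNA between them, and one that reads the other way joins by inversion. The join lies inside the CDR3, where bases are lost from both ends and sometimes added, so that many joins are out of the reading frame and give no light chain. A cell can rearrange the same allele again, with a V segment from farther out and a J segment from farther down, which is the route of receptor editing. IGKJ1 lies nearest to the V segments and IGKJ5 farthest, so joins to IGKJ5 are often read as the later ones. IGKJ3 is regarded as non-functional in the mouse.

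All 5 segments lie on chromosome 6 of GRCm38 (mm10), and each has 2 exons in the GENCODE M21 annotation. The second exon, 313 bases long in each, encodes most of the variable domain up to the CDR3. IGKV1-88 (ENSMUSG00000076535.1, chr6:68862265-68863031) is on the reverse strand, 1859.5 kb from IGKJ1, and joins by inversion. The other 4 are on the forward strand and join by deletion. They are IGKV1-99 (ENSMUSG00000076525.3, chr6:68541644-68542422), IGKV1-110 (ENSMUSG00000093861.2, chr6:68270485-68271267), IGKV1-117 (ENSMUSG00000094335.2, chr6:68121046-68121827) and IGKV1-122 (ENSMUSG00000095497.2, chr6:68016718-68017488). Their distances from IGKJ1 are 2180.1, 2451.3, 2600.7 and 2705.1 kb. IGKV1-110 and IGKV1-117 are near copies, identical at 303 of the 313 bases of the second exon (96.8%). IGKV1-122 matched them at 92.7% and 92.0%, and the other 7 pairs matched at 80.8% to 85.3%.

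The last 26 bases of each V segment are shown because the joins take place at their right end. Each run begins with the cysteine codon that precedes the CDR3, and the capitals mark the 3 bases that are missing from the join with the highest mean share over samples.
IGKV1-88: tgcttacaaggtacacatcagccTCC
IGKV1-99: tgcttccagagtaactatcttccTCT
IGKV1-110: tgctctcaaagtacacatgttccTCC
IGKV1-117: tgctttcaaggttcacatgttccTCC
IGKV1-122: tgcctccaagttacacatgtcccTCC

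The CDR3 nucleotide sequences that recurred most are shown next. Capitals mark the bases that come from the J segment and were not counted to the V segment. The first 5 are the most abundant clonotype of each V segment by its mean share over the 10 samples, and all 5 are in frame. The last is the most abundant out-of-frame clonotype of IGKV1-117.
IGKV1-88 with IGKJ1: ttacaaggtacacatcagccGTGGACG
IGKV1-99 with IGKJ2: ttccagagtaactatcttccGTACACG
IGKV1-110 with IGKJ2: tctcaaagtacacatgttccGTACACG
IGKV1-117 with IGKJ1: tttcaaggttcacatgttccGTGGACG
IGKV1-122 with IGKJ5: ctccaagttacacatgtcccGCTCACG
IGKV1-117 with IGKJ5, out of frame: tttcaaggttcacatgttcctcACG

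Because IGKV1-110 and IGKV1-117 are so alike, the V calls were checked against the CDR3s. In 11173 of the 11446 counts (97.6%), the start of the CDR3 matched the germline end of the named segment over more bases than that of any other of the 5. In 193 counts the match was equally long, and in 80 (0.699%) another of the 5 matched over more bases. The share of counts with the longest match to the named segment was 97.8% for IGKV1-110 and 97.1% for IGKV1-117, and lowest for IGKV1-99, at 93.3%. Part of the counts of near copies can still lie with the wrong one.

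Total counts ran from 3109 to 22765 in the WT samples and from 11656 to 24083 in the rsCBE samples, and WT replicate 4 was the shallowest. Replicates 1 and 2 of each genotype were deposited as 1 library each (set 1 below) and replicates 3 to 5 as 2 parts, a and b, which were added (set 2 below). The labels name no batch, and the division follows the table alone. Nothing in the labels says that the samples are separate animals, so p-values measure the spread between these samples, which may be technical. Other genes were not measured, so the labelled cell type was not tested against its markers.

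The 5 segments made up 7.10% ± 1.50 of the WT repertoire and 6.43% ± 1.40 of the rsCBE repertoire (mean ± SD, n = 5 each, as for all values below unless stated). In the order of their mean share of all counts, IGKV1-117 came first, then IGKV1-88, IGKV1-110, IGKV1-122 and IGKV1-99. A share of transcripts cannot tell more cells with a segment from more RNA per cell. The question for the genotypes was whether any of the 5 was used more or less in rsCBE cells, and none passed the test.

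IGKV1-117 held 3.17%, 2.94%, 1.56%, 1.80% and 2.03% of the counts in WT replicates 1 to 5, and 2.98%, 2.79%, 1.75%, 1.70% and 1.96% in rsCBE replicates 1 to 5. The means were 2.30% ± 0.711 and 2.23% ± 0.603. The groups overlapped almost completely, and the first 2 replicates of each genotype were the highest. It was the 10th most used of the 114 V segments.

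IGKV1-88, the segment of the 5 that joins by inversion, held 2.07%, 2.01%, 1.94%, 2.35% and 1.38% in WT, and 1.56%, 1.53%, 1.54%, 1.74% and 1.96% in rsCBE. The means were 1.95% ± 0.356 and 1.66% ± 0.184, and its rank was 15. The groups overlapped through WT replicate 5 and rsCBE replicate 5. At the shallowest sample, WT replicate 4, the 95% Wilson interval around 2.35% ran from 1.87% to 2.94%, and at rsCBE replicate 1 it ran from 1.41% to 1.72% around 1.56%. Such intervals cover counting error alone, since amplified reads are not independent molecules.

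IGKV1-110 held 2.28%, 1.85%, 1.20%, 1.74% and 1.33% in WT, and 2.01%, 1.81%, 1.08%, 1.11% and 0.935% in rsCBE. The means were 1.68% ± 0.430 and 1.39% ± 0.483 (rank 22), and the groups overlapped. It stayed below its near copy IGKV1-117 in 10 of 10 samples. IGKV1-117 was above IGKV1-88 in 6 of 10 samples and IGKV1-88 above IGKV1-110 in 7 of 10, so the order of those neighbours varied from sample to sample.

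IGKV1-122, the farthest of the 5 from the J segments, held 0.997%, 0.996%, 0.941%, 0.997% and 0.688% in WT, and 1.29%, 1.47%, 0.838%, 0.632% and 0.832% in rsCBE. The means were 0.924% ± 0.134 and 1.01% ± 0.350 (rank 38). The rsCBE samples spread to either side of the WT samples. In 10 of 10 samples it was below IGKV1-88, IGKV1-110 and IGKV1-117 and above IGKV1-99.

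IGKV1-99 was rare, at rank 84. Its shares were 0.536%, 0.243%, 0.116%, 0.225% and 0.0982% in WT and 0.253%, 0.206%, 0.0767%, 0.0492% and 0.0772% in rsCBE, with means of 0.244% ± 0.176 and 0.132% ± 0.0910. These rest on 122, 52, 16, 7 and 9 counts in WT and 61, 48, 14, 7 and 9 in rsCBE. In WT replicate 1 a single clonotype held 64 of the 122 counts (52.5%). IGKV1-99 thus fell under the minimum count for the tests of shares within a segment over all 10 samples.

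**Figure D1:**
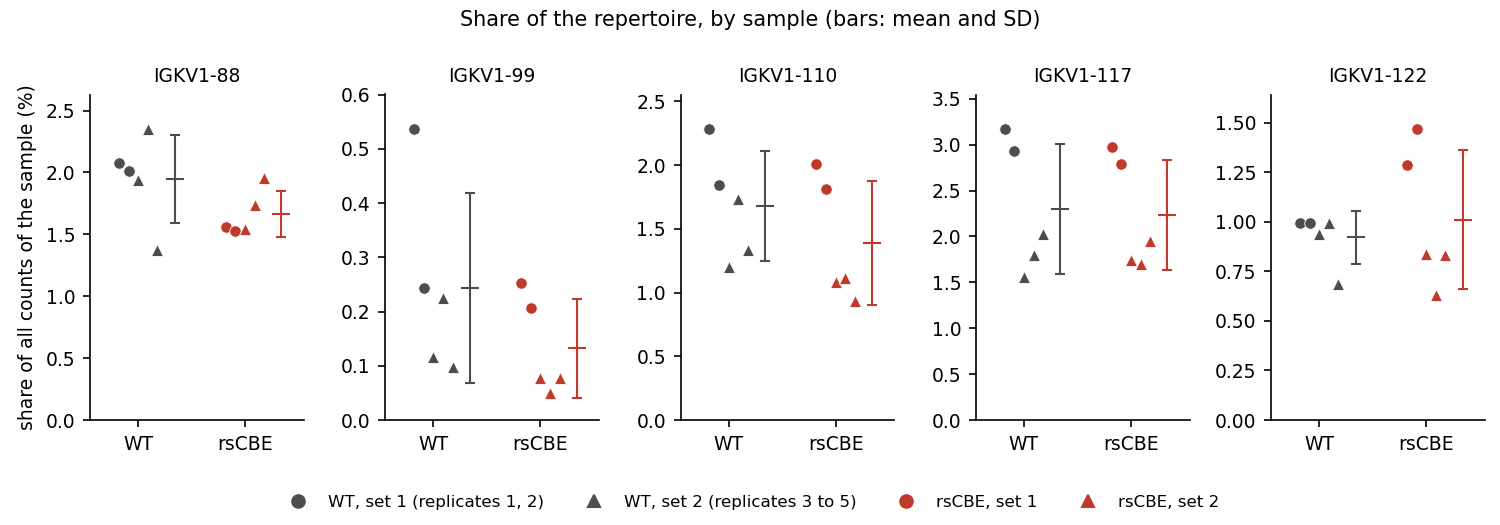
Share of all counts (%) held by each of the 5 V segments in each sample, with circles for set 1 (replicates 1 and 2), triangles for set 2 (replicates 3 to 5) and bars for the mean and SD of 5 samples. The WT and rsCBE points overlap in each panel, and the circles of IGKV1-117 (2.79% to 3.17%) lie above its triangles (1.56% to 2.03%).

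With edgeR's quasi-likelihood test on the counts, 0 of 98 V segments passed an adjusted p of 0.05 between the genotypes (0.0%), 7 had an unadjusted p under 0.05, and DESeq2 called 0, with 8 under 0.05 unadjusted. The log2 fold changes of rsCBE against WT, with standard errors, were -0.23 ± 0.18 for IGKV1-88, -0.27 ± 0.26 for IGKV1-110, -0.05 ± 0.25 for IGKV1-117 and 0.14 ± 0.25 for IGKV1-122 (edgeR adjusted p 0.973, 0.992, 0.992 and 0.992). IGKV1-99 had -0.88 ± 0.57 (edgeR adjusted p 0.973), and without WT replicate 1 its value was -0.31. The IGKV1-110 value was -0.13 without WT replicate 1, -0.16 without rsCBE replicate 5 and -0.44 without rsCBE replicate 1. With the replicate number as a block, 1 V segment passed, none of the 5. The median log2 fold change was -0.23 over the 5 and -0.05 over the 98 tested.

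More V segments were called between the sets than between the genotypes. Of 100 V segments tested for set 2 against set 1 with genotype in the model, 26 were called lower in set 2 (26.0%), and 4 of the 5 were among them. IGKV1-99 was lower by a log2 fold change of -1.67 ± 0.32, IGKV1-110 by -0.72 ± 0.15 and IGKV1-117 by -0.72 ± 0.12 (edgeR adjusted p 0.000300, 0.000648 and 5.57e-05). IGKV1-117 fell from a mean of 2.97% in set 1 to 1.80% in set 2 and IGKV1-110 from 1.99% (1.81% to 2.28%) to 1.23% (0.935% to 1.74%), and neither segment's sets overlapped. IGKV1-122 had -0.54 ± 0.19 (edgeR adjusted p 0.0200), from 1.19% to 0.821%. That call was lost without rsCBE replicate 1, 2 or 4, where the adjusted p was 0.0663, 0.114 and 0.0642.

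IGKV1-88, alone of the 5 in joining by inversion, had a set difference of 0.02 ± 0.15 (edgeR adjusted p 0.918), with means of 1.79% and 1.82%. Its difference from the other 4 was not tested. The genotype effect was not shown to differ between sets for any of the 5. Of 103 V segments, 0 were called for that interaction by edgeR (0.0%), 0 had an unadjusted p under 0.05, and DESeq2 was not run for it. Within sets 1 and 2, the log2 fold changes of rsCBE against WT were -0.40 and -0.09 for IGKV1-88, -0.11 and -0.42 for IGKV1-110, and 0.47 and -0.17 for IGKV1-122. The set goes with how the libraries were deposited, and what else differed between the sets was not tested.

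Across the 10 samples, the share of each V segment was centred on its own mean log2 share and compared with that of 62 V segments outside the 5 by the mean absolute difference. IGKV1-110 was nearest to IGKV9-120 (0.158 on the log2 scale) and IGKV19-93 (0.199), and its distance to IGKV1-117 was 0.164. IGKV1-117 was nearest to IGKV19-93 (0.147) and IGKV8-30 (0.168). IGKV1-122 was nearest to IGKV9-120 (0.190) and IGKV14-111 (0.207), and IGKV1-88 to IGKV5-48 (0.211) and IGKV12-41 (0.218). The segments most like the forward-strand members were thus other than those most like IGKV1-88. IGKV1-99 was too rare to be placed.

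Of the 7 other Igkv1 segments in the table, with 6644 counts, IGKV1-135 held 5574 and had a mean share of 4.23%. IGKV1-132 and IGKV1-133 had 522 and 488 counts, and the remaining 4 had 7 to 27 each. For the genotype, 3 of the 7 could be tested and 0 passed in either direction with edgeR. Between the sets, 2 of those 3 were called higher in set 2, IGKV1-133 by 2.10 ± 0.35 and IGKV1-135 by 2.19 ± 0.11 on the log2 scale (edgeR adjusted p 5.65e-05 and 2.29e-12), a direction in which 31 of the 100 V segments were called (31.0%). IGKV1-132 had -0.55 ± 0.28 (edgeR adjusted p 0.0956), the sign of the forward-strand members. The family thus held segments called in either direction between the sets.

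The J segment joined to each V segment was examined next, since the place of a J segment in the array bears on the order of rearrangement. Averaged over the 10 samples, IGKJ1 was the most used J segment of IGKV1-117 (46.7% of its counts), IGKV1-88 (41.8%) and IGKV1-110 (37.0%), whereas IGKV1-122 used IGKJ5 most (41.7%, against 27.1% for IGKJ1). IGKV1-99 used IGKJ2 most, at 44.5%, on few counts. IGKJ3 appeared in 2 of the 11446 counts.

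Within single samples, the IGKJ1 share of IGKV1-88 and of IGKV1-117 exceeded that of all other V segments pooled in 10 of 10 samples (41.8% against 27.6%, and 46.7% against 27.4%). For IGKV1-110 it did so in 8 of 10, and for IGKV1-122 in 4 of 10. IGKV1-88 had the lowest IGKJ4 share, 8.09% ± 2.53 (n = 10), and IGKV1-122 the lowest IGKJ2 share, 14.3% ± 8.98 (n = 10). For IGKV1-122 the means of IGKJ5 and IGKJ1 were close in WT (35.0% and 33.3%) and apart in rsCBE (48.4% and 20.9%), and in set 1 of WT the IGKJ1 mean was the higher (31.8% against 25.8%).

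**Figure D2:**
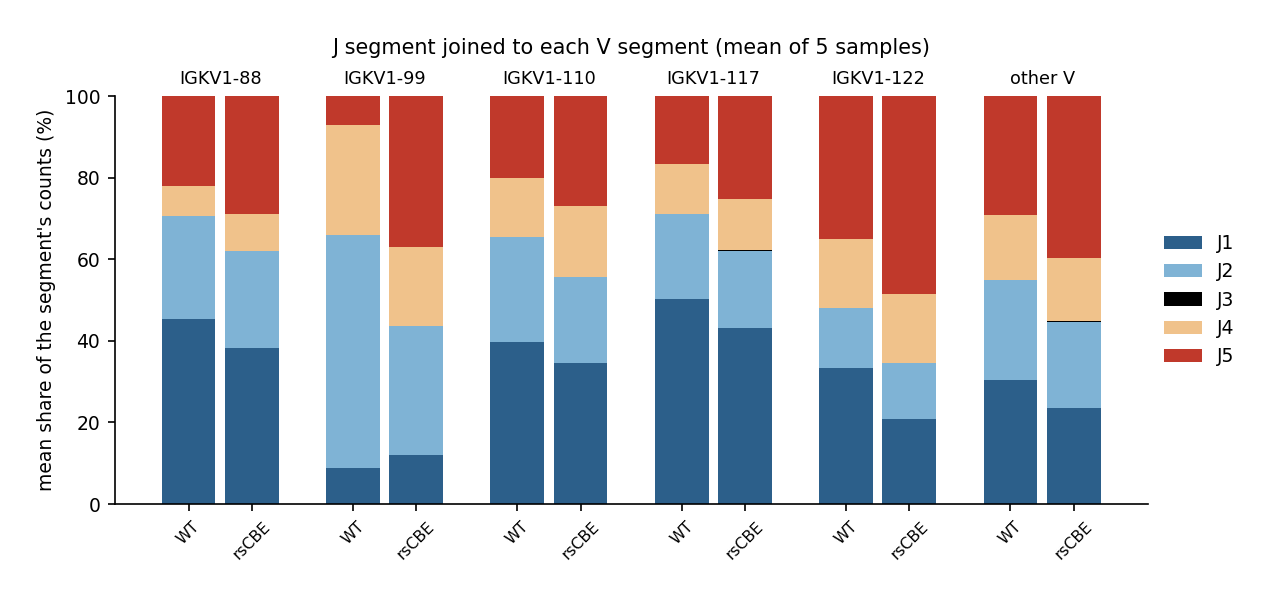
Mean share (%) of each V segment's counts joined to each J segment, as 1 stacked bar per genotype (mean of 5 samples), beside all other V segments pooled. IGKJ1 is the largest part of the bars of IGKV1-88, IGKV1-110 and IGKV1-117 in both genotypes, and IGKJ5 is the largest part of those of IGKV1-122.

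The difference in IGKJ5 use from the other V segments of the same sample was tested by exact sign-flip permutation over the 10 samples (two-sided, adjusted over 66 V segments with at least 10 counts in every sample). Of the 66, 18 were called lower (27.3%) and 20 higher (30.3%). IGKV1-117 had 20.9% IGKJ5 against 34.2%, a difference of -13.3 percentage points, IGKV1-110 had -10.6 and IGKV1-88 had -8.51. Each was lower in 10 of 10 samples (exact permutation p 0.00195, the smallest possible, adjusted p 0.00516). Same-numbered WT and rsCBE samples deviated together, so the 10 samples may not be independent in this and the later sign-flip tests. They also share a set, and the part that the set plays in this was not tested. With 5 pairs, an exact permutation p under 0.0625 could not be reached. In WT alone the differences were -12.3, -8.69 and -6.66 points, and in rsCBE alone -14.2, -12.5 and -10.4. IGKV1-122 went the other way, 7.90 points above the others and higher in 8 of 10 samples (exact permutation adjusted p 0.0215). It was also above IGKV1-110 and IGKV1-117 in 10 of 10 samples and above IGKV1-88 in 9 of 10.

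Between the genotypes, the mean IGKJ1 share of the 4 segments with enough counts was lower in rsCBE. For IGKV1-117 it was 51.7%, 49.7%, 51.4%, 46.4% and 52.2% in WT replicates 1 to 5 and 44.1%, 41.1%, 43.3%, 42.6% and 44.3% in rsCBE. The means were 50.3% ± 2.35 and 43.1% ± 1.28, and each rsCBE sample was below each WT sample. Of 66 V segments, 7 had such a gap downward (10.6%), and IGKV1-117 was the only one of the 4 with enough counts that did. IGKJ1 shares were not tested further.

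For IGKV1-122, IGKJ1 was 32.2%, 31.5%, 32.3%, 45.2% and 25.4% in WT and 15.5%, 17.8%, 17.6%, 24.4% and 28.9% in rsCBE. The means were 33.3% ± 7.23 and 20.9% ± 5.60. The groups overlapped through WT replicate 5 and rsCBE replicate 5. For IGKV1-88 the values were 37.9%, 45.8%, 52.6%, 45.2% and 45.2% against 35.7%, 39.9%, 43.6%, 35.6% and 36.4%, with means of 45.4% ± 5.20 and 38.3% ± 3.47. For IGKV1-110 they were 44.1%, 44.6%, 51.8%, 22.2% and 35.2% against 33.5%, 34.4%, 36.4%, 44.3% and 23.9%. Its groups overlapped widely, and WT replicate 4, with 54 counts, was the lowest of the 10.

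IGKJ5 use was the J measure tested between the genotypes. For IGKV1-122 it was 22.0%, 29.6%, 33.8%, 54.8% and 34.9% in WT and 54.5%, 50.9%, 58.8%, 35.6% and 42.3% in rsCBE, with means of 35.0% ± 12.2 and 48.4% ± 9.42. In WT replicate 4 the value rests on 17 of 31 counts (95% Wilson interval 37.8% to 70.8%). The difference of 13.4 percentage points was the widest of the 4, with 5 of 5 rsCBE samples above the WT median of 33.8%. Its exact permutation p was 0.0794, and 0.175 after adjustment over 66 V segments.

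For IGKV1-117, IGKJ5 was 13.3%, 15.3%, 16.7%, 33.9% and 3.76% in WT and 19.9%, 29.4%, 30.7%, 26.0% and 20.2% in rsCBE, with means of 16.6% ± 10.9 and 25.3% ± 5.05. The WT samples held both the highest and the lowest of the 10 values. For IGKV1-88 it was 22.2%, 19.8%, 10.1%, 31.5% and 27.0% against 32.8%, 32.6%, 22.7%, 28.7% and 28.1%. For IGKV1-110 it was 17.5%, 11.9%, 23.5%, 22.2% and 25.4% against 22.4%, 28.9%, 33.8%, 19.0% and 30.3%. The groups overlapped for each of the 4 segments, whereas 10 of the 66 V segments (15.2%) had each rsCBE sample above each WT sample.

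**Figure D3:**
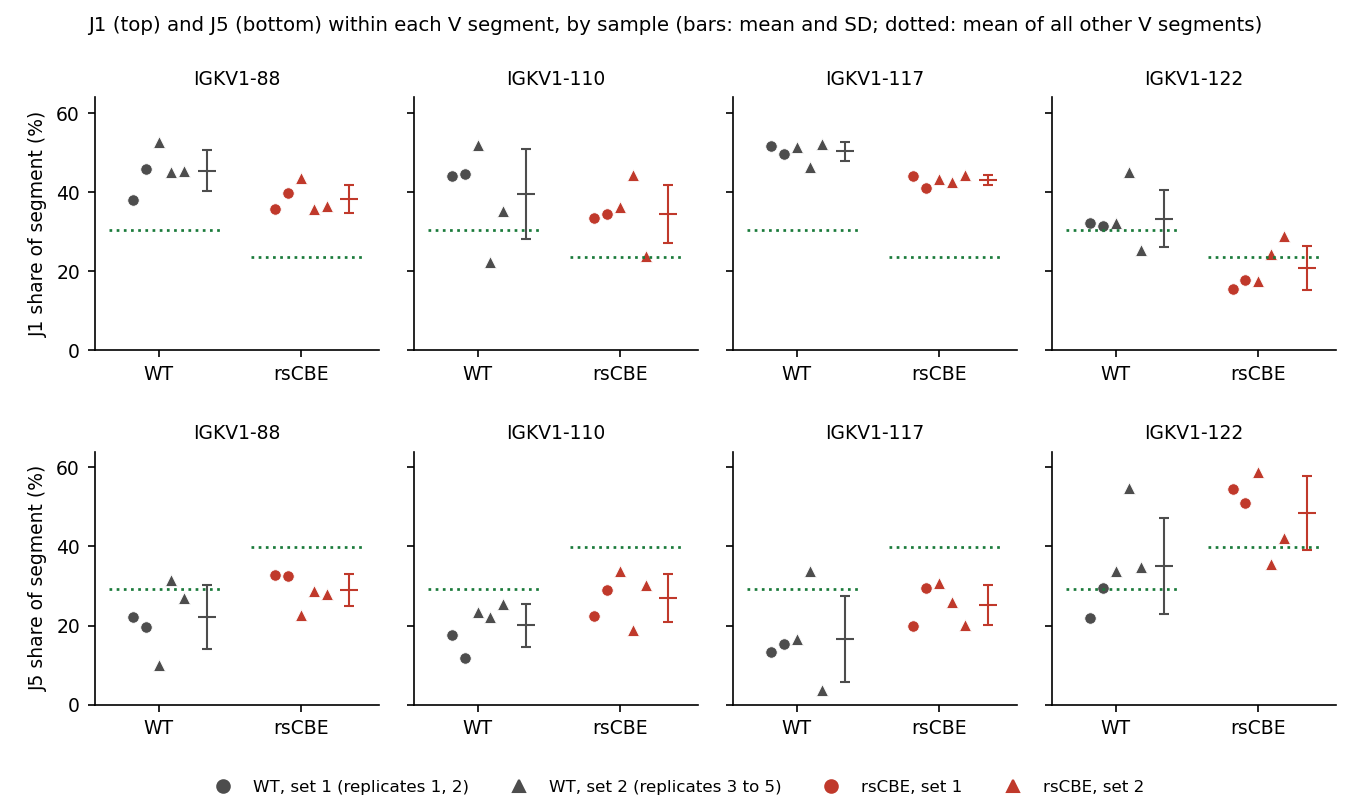
IGKJ1 share (top) and IGKJ5 share (bottom) of the counts of 4 V segments (%) in each sample, with circles for set 1, triangles for set 2, bars for the mean and SD, and a dotted line at the mean of all other V segments. The IGKJ1 points of IGKV1-117 do not overlap between genotypes (46.4% to 52.2% against 41.1% to 44.3%), while its IGKJ5 points do.

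The differences in IGKJ5 share were 6.86 points for IGKV1-88, 6.76 for IGKV1-110 and 8.67 for IGKV1-117 (exact permutation adjusted p 0.204, 0.185 and 0.228). Of 66 V segments 0 passed (0.0%) and 27 had an unadjusted p under 0.05, and no other tool was run on these shares. Without WT replicate 4, the shallowest sample, more V segments reached the minimum count and 29 of 85 were called higher in rsCBE (34.1%). IGKV1-117, at 13.0 points, and IGKV1-122, at 18.3 points, were among them (exact permutation adjusted p 0.0397 and 0.0465), and IGKV1-88 and IGKV1-110 were not (9.21 and 7.29 points, exact permutation adjusted p 0.0912 and 0.187). Without WT replicate 5, 12 V segments passed, none of the 4, and the IGKV1-117 difference was 5.46 points. The IGKV1-88 difference was 3.85 points without WT replicate 3. With part a alone for set 2, IGKV1-88, IGKV1-110, IGKV1-117 and IGKV1-122 had 8.32, 3.47, 6.27 and 9.76 points. With part b alone, the first 3 of these had 3.72, 11.1 and 11.6 points.

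Within set 1 the IGKJ5 difference of rsCBE against WT was 11.7 points for IGKV1-88, 10.9 for IGKV1-110, 10.4 for IGKV1-117 and 26.9 for IGKV1-122. In set 2 the same values were 3.65, 3.99, 7.52 and 4.35. The direction was the same in both sets for each of the 4, and the values were smaller in set 2. The difference between sets was not tested.

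The same question was put to V-J pairs as shares of all counts. Of 270 pairs, edgeR called 0 (0.0%), with 25 under an unadjusted p of 0.05, and DESeq2 called 3, with 43 under 0.05 unadjusted. The log2 fold changes of the IGKJ1 pairs were -0.47 with IGKV1-88, -0.48 with IGKV1-110, -0.28 with IGKV1-117 and -0.61 with IGKV1-122. Those of the IGKJ5 pairs were 0.20, 0.20, 0.66 and 0.70 in the same order. The edgeR adjusted p of these 8 pairs was 0.525 to 0.924. With a sample left out, the IGKJ5 values ran from 0.01 to 0.43 for IGKV1-88, 0.03 to 0.34 for IGKV1-110 and 0.40 to 0.86 for IGKV1-117, the lowest without WT replicate 3, rsCBE replicate 2 and WT replicate 5. The IGKJ1 values ran from -0.63 to -0.28 for IGKV1-110 and -0.42 to -0.12 for IGKV1-117, each nearest 0 without WT replicate 1. Set 1 alone holds 2 samples of each genotype. There 22 of 285 pairs were called higher in rsCBE (7.72%), and IGKV1-122 with IGKJ5 was one, at 1.49 ± 0.27 (edgeR adjusted p 0.00483). In set 2 the same pair had 0.02 (edgeR adjusted p 0.981). In set 1, 13 pairs were called lower (4.56%), among them IGKV1-88 with IGKJ2, at -0.88 ± 0.27 (edgeR adjusted p 0.0413). That pair had 0.07 in set 2 and -0.33 over all samples (edgeR adjusted p 0.981 and 0.744). The pair of IGKV1-99 with IGKJ2 had -1.54 ± 0.77 over all samples (edgeR adjusted p 0.503). It was -0.74 without WT replicate 1 and -2.01 without rsCBE replicate 1.

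The pooled counts of the 5 segments had IGKJ1 at 43.0% ± 3.58 in WT and 35.9% ± 1.78 in rsCBE. Their IGKJ5 share was 20.8% ± 6.36 and 30.2% ± 3.07. All other V segments pooled had IGKJ1 at 30.3% and 23.6% and IGKJ5 at 29.2% and 39.8%. The pooled counts thus had more IGKJ1 and less IGKJ5 than the others in both genotypes. IGKV1-122 taken alone had IGKJ1 at 33.3% in WT and 20.9% in rsCBE, above the others in WT and below them in rsCBE, and its IGKJ5 shares of 35.0% and 48.4% were above the others in both genotypes. IGKV1-99 taken alone had IGKJ1 at a 10-sample mean of 10.4%. The 7 other Igkv1 segments pooled lay farther to that side, with IGKJ1 at 58.1% and 51.3% and IGKJ5 at 12.9% and 20.8%.

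Whether a join keeps the reading frame decides whether a light chain can be made from it. In-frame joins without a stop codon held 72.2% to 74.7% of the counts of IGKV1-88, IGKV1-110, IGKV1-117 and IGKV1-122 on average. In the same samples the other V segments held 67.8% to 67.9%. For IGKV1-110 the difference was 6.76 points, and for IGKV1-88 4.63 points, each higher in 9 of 10 samples (exact sign-flip permutation adjusted p 0.0193 and 0.0136). IGKV1-117, with 4.37 points, and IGKV1-122, with 6.81, did not pass (exact permutation adjusted p 0.0598 and 0.0573). Of 66 V segments 12 were called higher (18.2%). Both passed with a minimum of 30 counts, which left 39 V segments (exact permutation adjusted p 0.0472 and 0.0457), and without rsCBE replicate 5 (0.0352 and 0.0430). IGKV1-117 also passed without WT replicate 3 (exact permutation adjusted p 0.0341), and IGKV1-122 had 3.69 points without WT replicate 4. The call for IGKV1-88 was lost when each clonotype was counted once, at 3.16 points (exact permutation adjusted p 0.328).

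Between the genotypes the in-frame share of IGKV1-117 was 80.4%, 80.6%, 67.1%, 78.6% and 74.7% in WT and 77.5%, 70.7%, 64.3%, 69.8% and 58.3% in rsCBE. For IGKV1-110 it was 80.9%, 79.0%, 69.9%, 79.6% and 82.0% in WT and 81.2%, 73.2%, 65.7%, 74.1% and 60.6% in rsCBE. WT replicate 3 was the lowest WT sample of both, and rsCBE replicate 5 the lowest of the 10. For IGKV1-88 it was 79.4%, 75.1%, 82.5%, 65.8% and 73.0% against 74.9%, 76.7%, 66.3%, 66.0% and 65.4%.

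For IGKV1-122 the in-frame share was 78.0%, 77.5%, 76.9%, 100% and 69.8% in WT and 78.1%, 71.1%, 63.4%, 74.4% and 57.7% in rsCBE. The 100% of WT replicate 4 rests on 31 counts (95% Wilson interval from 89.0%) in 3 clonotypes. The groups overlapped for each segment. The differences were -5.30 points for IGKV1-88, -7.35 for IGKV1-110, -8.15 for IGKV1-117 and -11.5 for IGKV1-122, the last becoming -6.61 without WT replicate 4. Without WT replicate 3 the IGKV1-88 value was -3.48, and without rsCBE replicate 5 the IGKV1-110 value was -4.76. The exact permutation adjusted p was 0.491, 0.393, 0.339 and 0.378. Of 66 V segments 0 passed (0.0%), with 10 under an unadjusted p of 0.05, and no other tool was run.

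Within set 1 the in-frame differences were -1.47, -2.77, -6.37 and -3.16 points for IGKV1-88, IGKV1-110, IGKV1-117 and IGKV1-122. In set 2 they were -7.86, -10.4, -9.33 and -17.1. They had the same sign in both sets and were larger in set 2, the reverse of the IGKJ5 differences, and neither contrast between sets was tested.

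**Figure D4:**
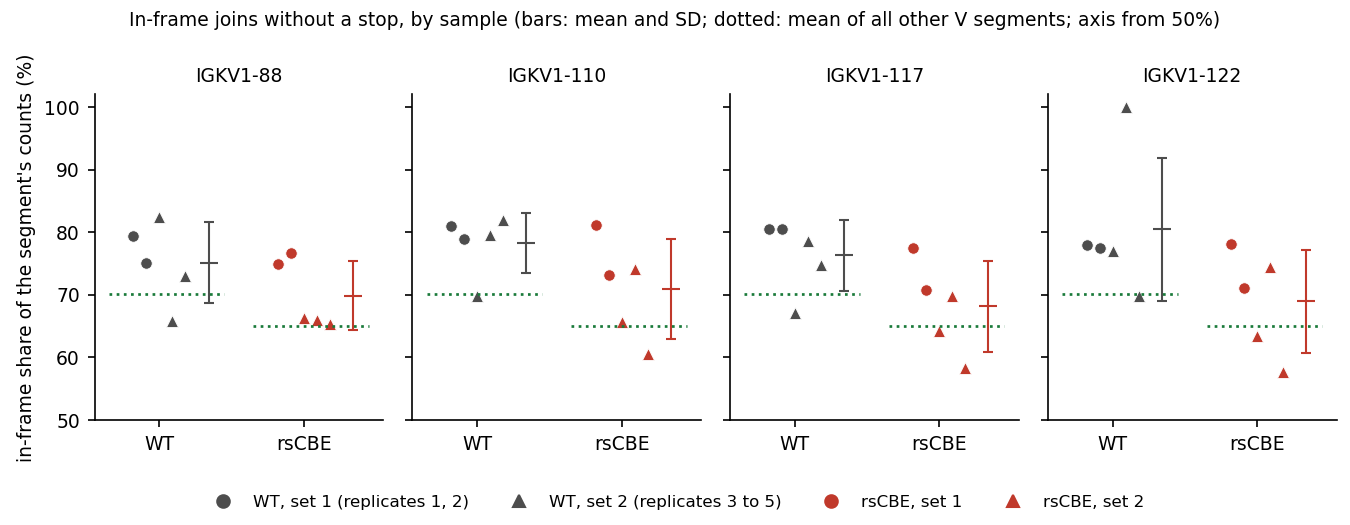
Share of counts in frame (%) for 4 V segments in each sample, with circles for set 1, triangles for set 2, bars for the mean and SD, and a dotted line at the mean of all other V segments. WT and rsCBE overlap in each panel, and the 100% point of IGKV1-122 is WT replicate 4.

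IGKJ5 use was also split by reading frame, with the remaining counts (out of frame, or in frame with a stop codon) set against the in-frame counts without a stop. In IGKV1-110, IGKJ5 held 21.3% of the in-frame counts in WT and 21.0% in rsCBE. Of its remaining counts, IGKJ5 held 14.3% ± 10.6 and 39.4% ± 23.0. In IGKV1-117 the in-frame values were 14.6% and 17.9%, and the remaining counts had 23.0% ± 11.4 and 40.4% ± 6.67. For these near copies the means of the genotypes were closer together in the in-frame counts than in the remaining counts. IGKV1-122 had the other pattern, with 29.7% and 46.7% in frame and 49.5% ± 22.2 (n = 4) and 49.0% ± 22.6 in the remaining counts. IGKV1-88 had 18.2% and 27.5% in frame and 32.2% and 33.5% in the remaining counts. The splits rest on few remaining counts per sample, and no difference between them was tested.

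The joins themselves were simple and recurred from sample to sample. In 19 of the 20 pairs of the 5 V segments with IGKJ1, IGKJ2, IGKJ4 and IGKJ5, the clonotype with the highest mean share over samples was a CDR3 of 27 nucleotides in which the V segment had lost its last 3 bases, with no base added. The exception was IGKV1-99 with IGKJ4, where a 22-nucleotide out-of-frame CDR3 led on 10 counts in 4 samples. Ranked by summed counts instead, 19 of the 20 pairs had a leading clonotype of that kind, and the exception was IGKV1-99 with IGKJ2. There a 27-nucleotide join with no V base missing led on 67 counts in 3 samples, 64 of them in WT replicate 1. The join that led this pair by mean share had 46 counts in 6 samples, and its mean includes 88.9% in WT replicate 5, on 9 counts. The 5 in-frame sequences printed above are of this kind. With IGKJ1 and IGKJ5 the J segment was whole, and the first base of IGKJ2 was absent from the join.

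The IGKV1-117 sequence ending in GTGGACG was the most abundant of all, with 733 counts in 10 samples, and held 18.4% ± 5.22 of that segment's counts in WT and 16.0% ± 3.73 in rsCBE. The same form of IGKV1-88 had 429 counts in 10 samples and held 14.5% ± 5.22 and 13.8% ± 3.64. The leading IGKV1-110 sequence, joined to IGKJ2, had 316 counts in 10 samples and held 14.6% ± 7.72 and 9.04% ± 4.43. The IGKV1-110 join to IGKJ1 was close behind, with 306 counts. In each case the SDs of the genotypes overlapped.

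In IGKV1-122 the leading sequence was the one ending in GCTCACG, from IGKJ5, with 300 counts in 10 samples. It held 13.9% ± 8.73 of that segment's counts in WT and 21.9% ± 7.29 in rsCBE. Its counterpart with IGKJ1 had 178 counts and held 19.3% ± 15.5 and 8.25% ± 5.20, the WT mean including 45.2% in WT replicate 4, on 14 of 31 counts. The same IGKJ5 join made 8.05% of IGKV1-88, 6.25% of IGKV1-110 and 5.61% of IGKV1-117 on average.

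An out-of-frame join of 25 nucleotides to IGKJ5, the last of the printed sequences in its IGKV1-117 form, was the most abundant out-of-frame clonotype of 4 of the 5. It held 3.53% of the counts of IGKV1-88 (85 counts, 9 samples), 2.13% of IGKV1-110 (55 counts, 8 samples), 3.46% of IGKV1-117 (103 counts, 10 samples) and 5.06% of IGKV1-122 (86 counts, 8 samples). In it 3 bases at the seam match both the V segment and IGKJ5. With these counted to both, each lacks 1 base, so at least 1 of the ends lost more. The leading out-of-frame join of IGKV1-99 was to IGKJ4, on 10 counts, and its mean includes 85.7% in WT replicate 4, on 6 of 7 counts.

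By mean over samples, the loss of 3 bases was the most frequent V end in each segment. It accounted for 43.6% ± 5.30 of the counts of IGKV1-88, 43.8% ± 5.57 of IGKV1-110, 48.1% ± 7.54 of IGKV1-117 and 54.7% ± 9.92 of IGKV1-122 (n = 10 each). V ends with no base missing held 15.1%, 15.4%, 12.4% and 10.8%, and ends with 1 base missing 15.0%, 17.8%, 13.4% and 16.7%. In WT replicate 1 of IGKV1-99, with its 1 large clonotype, ends with no base missing held 63.9% of the counts and ends with 3 missing 18.9%. No base was added between V and J in 80.4% to 84.6% of the counts of the 5 segments. A base shared by the ends of V and J was counted to V, which lowers the number of missing V bases. The match to V ended at the first mismatch, which raises the missing V bases and the added bases where a mismatch lies within V.

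**Figure D5:**
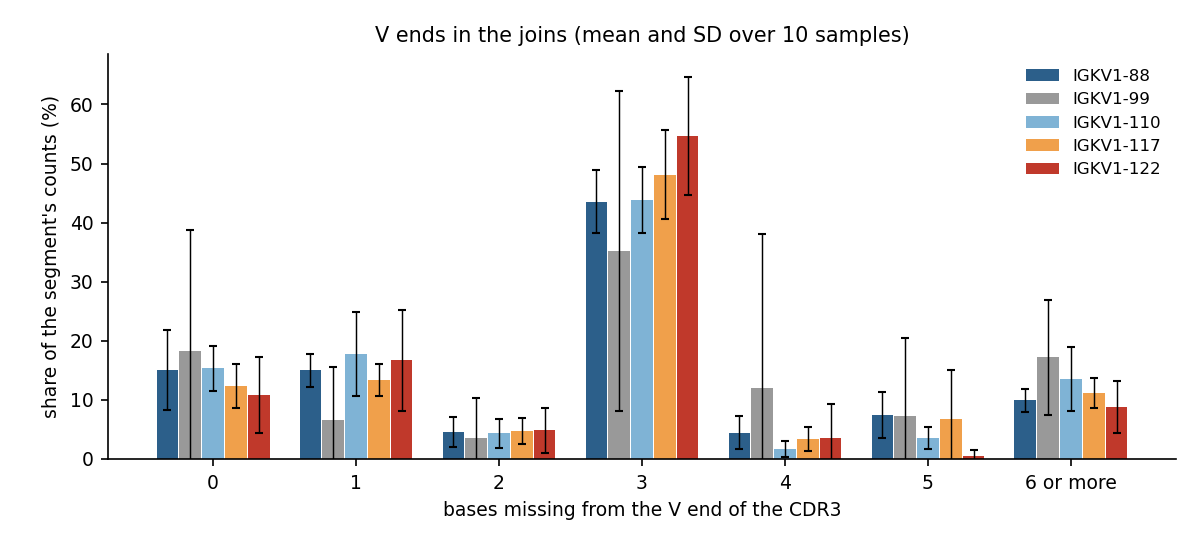
Share of counts (%) by the number of bases missing from the V segment's end, for the 5 V segments, with a bar per segment for the mean over 10 samples and lines for the SD, whose lower ends are not drawn below 0. Each segment's tallest bar is at 3 missing bases, 43.6% for IGKV1-88 and 54.7% for IGKV1-122. The lines of IGKV1-99, which had few counts, are the longest.

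Among junction measures compared between genotypes without a test, V ends with no base missing held 19.7% ± 5.92 of the counts of IGKV1-88 in WT and 10.5% ± 3.99 in rsCBE. The mean of this measure was also lower in rsCBE for IGKV1-117 (13.4% and 11.4%) and higher for IGKV1-110 (14.6% and 16.2%) and IGKV1-122 (8.73% and 13.0%). In IGKV1-117, joins in which V and J overlapped by shared bases held 9.92% ± 3.90 in WT and 17.4% ± 2.46 in rsCBE. Their mean was also higher in rsCBE for IGKV1-110 (12.7% and 16.2%) and IGKV1-122 (15.9% and 20.2%), and for IGKV1-88 it was 22.2% and 21.5%. These 2 measures were chosen after their values were seen.

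In-frame CDR3s were close to 27 nucleotides in each segment, and 27-nucleotide CDR3s made up 70.7% of the in-frame counts of IGKV1-88, 77.3% of IGKV1-110, 80.3% of IGKV1-117 and 87.5% of IGKV1-122. IGKV1-117 was longer than the other V segments of the same sample by 0.37 nucleotides and IGKV1-122 by 0.28, each in 9 of 10 samples (exact sign-flip permutation adjusted p 0.00737 and 0.00992). IGKV1-110 and IGKV1-88, with 0.21 and 0.25, did not pass (exact permutation adjusted p 0.420 and 0.447). Without WT replicate 5 the IGKV1-110 value was 0.41 and passed (exact permutation adjusted p 0.0129), and without WT replicate 4 the IGKV1-88 value was 0.0367. Of 66 V segments 36 were called longer (54.5%), so 2 of 4 is about the share of all V segments. The IGKV1-117 value was 0.16 and no longer passed when each clonotype was counted once (exact permutation adjusted p 0.438).

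The 5 segments had 1668 clonotypes in all, 394 for IGKV1-88, 99 for IGKV1-99, 396 for IGKV1-110, 526 for IGKV1-117 and 253 for IGKV1-122. In each, 74.5% to 77.0% of the clonotypes were found in 1 sample. The few found in 9 or more samples, 11 for IGKV1-88, 7 for IGKV1-110, 9 for IGKV1-117 and 5 for IGKV1-122, held 57.9%, 49.7%, 58.0% and 51.7% of the counts. These joins shared by nearly all samples thus held close to as many counts as all other joins together, or more, in those 4 segments, while most clonotypes were found in 1 sample. IGKV1-99 had no clonotype in 9 or more samples.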

How the data were processed

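The authors deposited 1 table of raw counts per clonotype, with V call, J call, CDR3 and library, for 16 libraries of the 10 samples in 49079 lines. The genome build is mm10, per the submitters' processing notes. The V caller, its germline set and the meaning of a count are not given in the sources used here. Parts a and b of a replicate were added and 49 repeated lines merged. Positions and germline V and J sequences came from GENCODE M21 (GRCm38).

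V segments and V-J pairs were tested on counts with edgeR 4.0.16 (quasi-likelihood test, library totals as sizes with no further scaling, Benjamini-Hochberg adjustment) in R 4.3.3. Shares within a V segment were tested by exact two-sided permutation, or by sign-flips against the other V segments of the same sample, in Python 3.11.15 with scipy 1.17.1. These covered V segments with at least 10 counts in every sample and were adjusted over all of them. Standard errors of edgeR log2 fold changes were approximated as the absolute log2 fold change over the square root of the F statistic. Calls used an adjusted p of 0.05. Intervals are Wilson 95%. The edgeR test and the permutation test between genotypes were also run on simulated data, with outcomes not given here. The 5 segments, the measures and the lists were chosen with earlier results of these data known. Clonotypes were named by rule: the most abundant by mean share over samples among all joins, in frame, out of frame, and in frame with IGKJ1 and IGKJ5. Like segments were named as the 2 nearest.

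Alternatives were TMM scaling, DESeq2 1.42.0, no filter, a minimum of 30 counts, each clonotype counted once, clonotypes of 1 count left out, in-frame clonotypes alone, single parts, single sets, a set term, the replicate number as a block and leaving out each sample. TMM scaling and leave-one-out fits for the set comparisons were added after seeing the data. The labels give both genotypes the numbers 1 to 5. Same-numbered samples deviated together in share over 66 V segments (correlations 0.877, 0.870, 0.708, 0.453 and 0.480), and replicates 1 and 3 matched best with their own number. WT replicates 2, 4 and 5 matched best with rsCBE replicates 1, 3 and 4, each of the same set. Set differences were not removed before these correlations.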

Additional observations from a re-analysis of the deposited data

Results flagged for a closer look

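In 6 of the 69 groups of 5 samples examined, 1 sample lay far from the other 4 (a gap over 0.71 of the group's range), which chance gives in about 1 of 20 groups. All 6 were WT samples. The share of IGKV1-122 in the repertoire was 0.688% in WT replicate 5, where the other 4 had 0.941% to 0.997%. The IGKJ2 share of IGKV1-117 was 3.57% in WT replicate 4, on 56 counts, against 21.2% to 27.4%. The IGKJ4 share of IGKV1-99 was 85.7% there, on 7 counts, against 0% to 21.2%. The in-frame share of IGKV1-122 was 100% in the same sample, on 31 counts, against 69.8% to 78.0%. The mean length of in-frame CDR3s of IGKV1-88 was 28.8 nucleotides there, on 48 in-frame counts, against 26.3 to 26.9. WT replicate 4 was the shallowest sample and gave 4 of the 6 values, and the part that depth plays was not tested. The in-frame share of IGKV1-110 was 69.9% in WT replicate 3, on 166 counts, against 79.0% to 82.0%.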

How the results depend on the processing

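Of 820 values recomputed under an alternative, 777 kept their direction and side of the threshold, or for a count stayed within 1.5 times. For shares within single sets, keeping the direction was enough. Within single genotypes, the value also had to move by less than 1 SD of the segment's own values. With the replicate number as a block, 1 V segment was called between the genotypes, and with a set term 2, none of the 5 in either case. The block was run for the genotype comparisons, where it changed no call of the 5, and not for the comparisons with the other V segments. Of V-J pairs, DESeq2 called 3, the set term 7 and set 1 alone 35. V segments called for IGKJ5 between the genotypes numbered 11 with part a alone, 7 with part b alone and 0 to 29 with a sample left out. Against the other V segments, counting each clonotype once left 20 calls for IGKJ5, 14 for in-frame share and 18 for CDR3 length, among the 35 V segments that could then be tested. A minimum of 30 counts left 29 for CDR3 length among 39, and leaving out a sample gave 37 to 61 for IGKJ5. Directions turned for small values. The log2 fold change of IGKV1-117 between genotypes was 0.00423 within set 2 and -0.17 to 0.10 with a sample left out, and that of IGKV1-122 was -0.17 within set 2 and -0.0377 to 0.26 with a sample left out. The pair of IGKV1-110 with IGKJ5 had -0.22 in in-frame clonotypes and -0.20 within set 2. The set difference of IGKV1-88 ran from -0.0373 to 0.12 with a sample left out, and the CDR3 difference of IGKV1-110 was -0.0353 nucleotides with each clonotype once and -0.0246 in WT alone. The cause was not tested, except that fewer V segments could be tested with each clonotype once. Counts of calls for shares within single sets or single genotypes are not given, since such designs cannot pass an exact test. Depth limited IGKV1-99 most, with 7 counts in its lowest samples.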
